A study of Mus musculus with 2 samples.

Results

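The immunoglobulin variable (V) genes encode the part of an antibody that binds antigen, and they were followed here in CD45+ immune cells of mouse visceral adipose tissue (VAT). All gene columns whose names start with Ighv, Igkv or Iglv were taken, which gave 274 V genes of 26981 genes in either file: 132 heavy-chain, 139 kappa and 3 lambda genes. Of these, 228 were listed in the normal water (NW) file, 249 in the antibiotics (ABX) file and 203 in both. A V gene listed in 1 file was taken as 0 in the other. All 274 matched the GENCODE M21 annotation of GRCm38. The heavy genes lie on chromosome 12 between positions 113572927 and 116010093, the kappa genes on chromosome 6 between 67555497 and 70704177, and the lambda genes on chromosome 16 between 19085017 and 19260859. In the cells that passed the filters, 270 V genes had at least 1 unique molecular identifier (UMI, a distinct mRNA molecule counted), and 106 had at least 50 over both libraries. The annotation calls 72 of the 274 pseudogenes, and these held 0.237% of the V gene UMIs in NW and 0.300% in ABX.

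Each developing B cell joins 1 heavy V gene to D and J segments and then 1 kappa or lambda V gene to a J segment, so its antibody mRNA normally carries a single heavy and a single light V gene for the rest of its life. B cells carry little of this mRNA, whereas plasma cells, the antibody-secreting end of the lineage, carry a great deal. B-1 cells are a B cell type of the body cavities, known for natural IgM and for a few recurrent germline V gene pairs, of which VH11 with Vk9 is the best known. VH11 is the older name of Ighv11-2, and Vk9 that of Igkv14-126.

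Both libraries came from 15-week-old wild-type C57BL/6 mice, kept specific-pathogen-free, and the study used male mice. The NW mice drank plain water and the ABX mice drank water with antibiotics. The methods list ampicillin, streptomycin, colistin and vancomycin, together or singly, without saying which was used for this library. VAT, called eWAT in the sample titles, was digested for single cells, CD45+ cells were taken with magnetic beads, and 1 BD Rhapsody whole-transcriptome library was made per condition. The number of mice behind each library is not named, so no spread between mice could be measured, no test was made, and all intervals below are exact 95% intervals that cover counting error only. After filters on UMIs, genes and mitochondrial share, 12474 cells of NW (median depth 5092 UMIs) and 12724 of ABX (median depth 3845.5 UMIs) passed. The 2 libraries shared 196 cell indices, where 179 would be shared by independent draws. In 8 of these the index marked a plasma cell-like cell in 1 library, and in none of the 8 did the cell of the other library hold a V gene UMI.

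The sequences below show how closely related the V genes that lead these data are, since near-identical genes can share reads. Each line gives the 300 bases at the 3′ end of the germline coding sequence (leader and V exon joined) of the GENCODE M21 transcript on GRCm38, from 5′ to 3′. Capitals mark the bases that differ from the other gene of its pair or stand against a gap in the alignment. Ighv11-2 (chromosome 12, 114048241 to 114048812, minus strand) and Ighv11-1 (113981879 to 113982341, minus strand) differ at 4 of 353 bases over the whole coding sequence, and all 4 lie in the part shown. Igkv14-126 (chromosome 6, 67896172 to 67896642, plus strand) and Igkv14-111 (68256389 to 68256869, plus strand), each of 353 bases, differ at 30 positions, gaps included. In the part shown, 26 bases of each are marked. Iglv1 (chromosome 16, 19085017 to 19085500, minus strand) and Iglv2 (19260401 to 19260859, minus strand) differ at 13 positions, gaps included, 8 of them shown.
Ighv11-2: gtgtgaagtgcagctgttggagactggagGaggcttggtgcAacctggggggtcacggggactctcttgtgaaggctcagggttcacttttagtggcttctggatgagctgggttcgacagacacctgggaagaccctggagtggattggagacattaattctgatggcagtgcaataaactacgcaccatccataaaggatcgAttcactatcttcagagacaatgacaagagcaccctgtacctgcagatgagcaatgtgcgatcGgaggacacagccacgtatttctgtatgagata
Ighv11-1: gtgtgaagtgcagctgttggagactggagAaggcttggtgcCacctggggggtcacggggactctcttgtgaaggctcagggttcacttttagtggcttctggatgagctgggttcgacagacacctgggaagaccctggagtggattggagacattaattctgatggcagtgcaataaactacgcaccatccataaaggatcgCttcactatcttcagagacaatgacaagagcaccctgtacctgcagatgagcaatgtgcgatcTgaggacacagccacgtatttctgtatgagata
Igkv14-126: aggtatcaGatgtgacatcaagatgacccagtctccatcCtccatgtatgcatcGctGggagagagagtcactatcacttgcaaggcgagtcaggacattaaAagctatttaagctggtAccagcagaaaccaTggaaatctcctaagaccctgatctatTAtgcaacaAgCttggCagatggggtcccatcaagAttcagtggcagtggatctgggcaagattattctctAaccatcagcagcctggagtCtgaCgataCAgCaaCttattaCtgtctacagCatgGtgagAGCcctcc
Igkv14-111: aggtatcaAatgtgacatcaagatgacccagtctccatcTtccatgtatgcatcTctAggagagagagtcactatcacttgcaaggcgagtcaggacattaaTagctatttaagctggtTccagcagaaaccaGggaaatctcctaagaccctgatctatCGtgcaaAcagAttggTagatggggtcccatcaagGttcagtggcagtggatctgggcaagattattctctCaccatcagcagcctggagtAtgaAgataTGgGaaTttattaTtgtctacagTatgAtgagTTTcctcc
Iglv1: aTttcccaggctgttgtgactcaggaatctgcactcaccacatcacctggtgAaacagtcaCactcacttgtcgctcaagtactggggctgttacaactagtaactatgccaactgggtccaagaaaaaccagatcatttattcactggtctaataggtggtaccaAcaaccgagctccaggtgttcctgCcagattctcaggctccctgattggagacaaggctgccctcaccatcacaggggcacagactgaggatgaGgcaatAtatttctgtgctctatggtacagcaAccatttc
Iglv2: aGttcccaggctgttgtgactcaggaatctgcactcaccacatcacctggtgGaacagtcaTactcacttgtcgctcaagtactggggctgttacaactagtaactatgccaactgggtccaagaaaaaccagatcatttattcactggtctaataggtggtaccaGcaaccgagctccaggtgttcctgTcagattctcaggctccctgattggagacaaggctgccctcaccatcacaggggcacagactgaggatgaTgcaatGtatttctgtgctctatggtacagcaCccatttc
Over the 203 V genes with a coding sequence, the median identity to the nearest other gene of the same locus was 93.1%, and 24 genes reached 97%. Gaps counted as differences here, so a gene with a shorter annotated coding sequence stands lower. For example, Igkv3-7 (299 bases) stood at 80.5% to Igkv3-12 (359 bases), with 70 differences. These values can thus understate how many genes could share reads. Ighv1-62-2 and Ighv1-71 were identical over 302 bases, so their counts cannot be separated by sequence. Ighv11-1 received 2 UMIs in the plasma cell-like cells of NW and 3 in those of ABX, where Ighv11-2 received 774 and 371.

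V gene mRNA was concentrated in very few cells. The NW library held 53159 V gene UMIs (4671 heavy and 48488 light) and the ABX library 62371 (5545 and 56826). In NW, 45 cells held 50% of them and 130 cells held 90%, and in ABX the numbers were 72 and 213. The 10 highest cells held 19.6% in NW and 11.6% in ABX, with up to 1412 and 1132 V gene UMIs in a cell. Only 9.68% of the NW cells (interval 9.16 to 10.2%) and 13.2% of the ABX cells (12.6 to 13.8%) had any V gene UMI. Of the 125 cells that make up the top 1% in NW, 123 were plasma cell-like, as were 121 of 127 in ABX.

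The names used for cells rest on clusters made without immunoglobulin genes and on fixed marker genes. The plasma cell-like cluster, with 173 NW and 263 ABX cells, passed the limits for all 9 plasma cell markers, and 50% or more of its cells carried each of 9 markers in NW and each of 8 in ABX. The B cell-like cluster, with 351 NW and 969 ABX cells, carried each of the 10 B cell markers in no less than 63.1% of cells. These are 1.39% and 2.07% of all cells for the plasma cell-like class and 2.81% and 7.62% for the B cell-like class.

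Plasma cell-like cells held 94.8% of the V gene UMIs of NW and 90.2% of those of ABX, and B cell-like cells 1.61% and 3.45%. The level in plasma cell-like cells was 20972 V gene UMIs per 1000000 UMIs (counts per 1000000, CPM) in NW (20790 to 21156) and 18044 in ABX (17895 to 18193). In B cell-like cells it was 497 in NW (464 to 531) and 469 in ABX (450 to 490). A plasma cell-like cell held a median of 241 V gene UMIs in NW and 174 in ABX, and a B cell-like cell a median of 2 in both. Proliferating cells stood at 275 CPM in NW, below the B cell-like cells, and at 959 in ABX, above them. These levels rest on few cells: 6 of 341 NW cells held 817 of the class's 922 V gene UMIs and 21 of 265 ABX cells held 2538 of 2718, and without them the class stood at 33.0 CPM in NW (27.0 to 39.9) and 78.2 in ABX (67.2 to 90.5). Macrophage-like cells, by far the largest class, held 15.6 CPM in NW (14.4 to 17.0) and 13.4 in ABX (11.9 to 15.0).

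Over all cells, V gene UMIs were higher in ABX by 0.54 on the log2 scale (0.52 to 0.55). Within plasma cell-like cells they were lower in ABX, with a log2 ratio of -0.22 (-0.23 to -0.20), and within B cell-like cells the log2 ratio was -0.08 (-0.20 to 0.03). The share of plasma cell-like and of B cell-like cells was larger in ABX in these 2 libraries, as given above. The treatment and any other difference between the 2 libraries cannot be told apart.

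**Figure D1:**
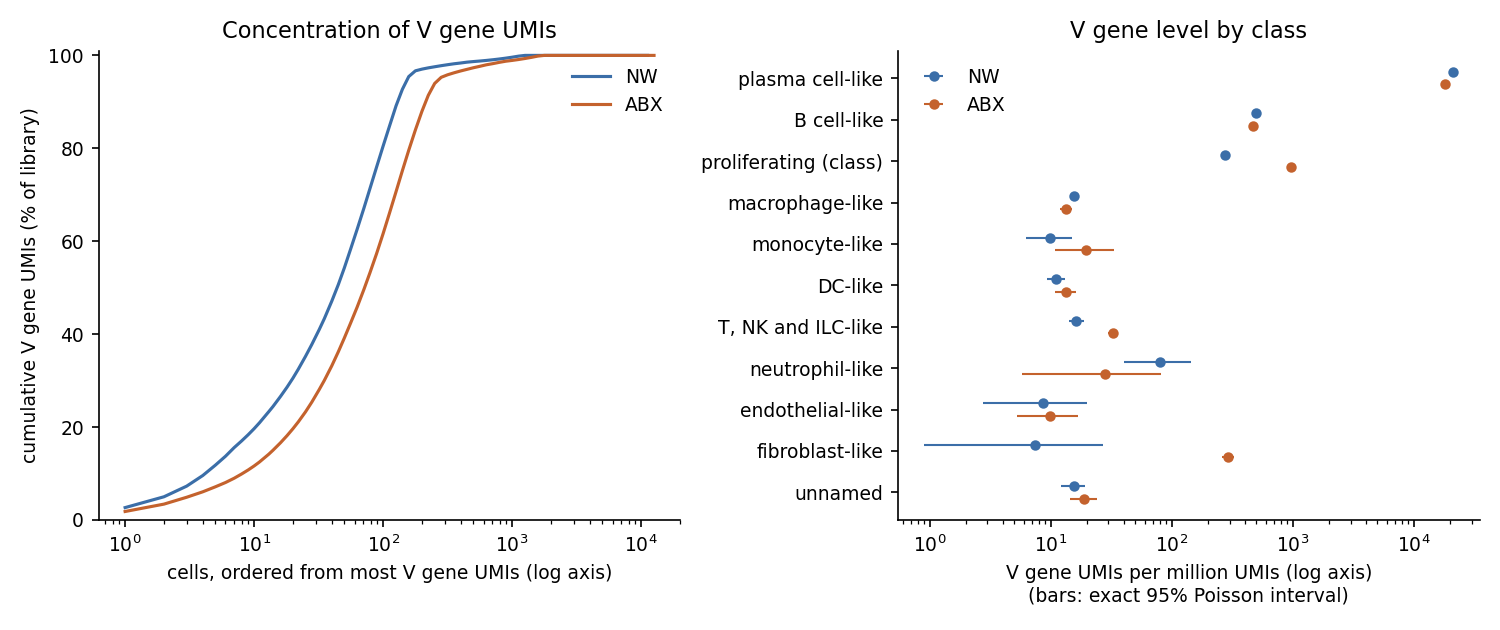
Left, cumulative percent of a library's V gene UMIs (y) over its cells ordered from the most V gene UMIs (x, log axis); right, V gene level in CPM (x, log axis) by cell class, as points with exact 95% Poisson intervals. The NW curve lies above the ABX curve, with 50% reached at 45 against 72 cells, and the plasma cell-like class stands above every other class in both libraries.

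Some cells outside the plasma cell-like class held many V gene UMIs. With a limit of 20 V gene UMIs there were 11 such cells in NW and 23 in ABX, among them 1 B cell-like NW cell with 27. Of these, 6 in NW and 21 in ABX were in the proliferating class, with 25 to 259 and 21 to 402 V gene UMIs. Jchain, the gene of the chain that joins IgM and IgA units, had 10 or more UMIs in 3 of the 6 NW cells. It did so in 20 of the 21 ABX cells. Another 4 NW cells were macrophage-like, with 23 to 80 V gene UMIs, and in all 4 both chains could be called and Jchain had 10 or more UMIs. In ABX, 1 fibroblast-like cell held 283 of that class's 293 V gene UMIs, and 1 cell of the T, NK and ILC class held 250 of 452. Scrublet marked 1 of the macrophage-like cells and the T, NK and ILC cell as doublets. The levels of these 2 ABX classes in the plot of V gene levels by class rest on those cells.

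Light V genes were counted far more often than heavy ones. In plasma cell-like cells there were 11.0 light V gene UMIs for each heavy one in both libraries, and in B cell-like cells 5.57 in NW and 5.10 in ABX. Set against the constant genes in the same plasma cell-like cells, heavy V genes gave 14.4 UMIs per 1000 heavy constant UMIs in NW and 13.5 in ABX, and light V genes 78.2 and 67.6 per 1000 light constant UMIs. The V segment lies at the 5′ side of the transcript, whereas the assay primes at the 3′ end, and the part of this distance in the low counts was not tested. The medians per plasma cell-like cell were 15 heavy and 217 light V gene UMIs in NW and 11 and 163 in ABX.

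A chain was called in a cell when its leading V gene had at least 3 UMIs and at least 75% of the cell's V gene UMIs of that chain. In plasma cell-like cells, a heavy V gene was called in 150 of 173 NW cells, or 86.7% (80.7 to 91.4%), and in 209 of 263 ABX cells, or 79.5% (74.1 to 84.2%). A light V gene was called in 157 NW cells (90.8%) and 235 ABX cells (89.4%). Both chains were called in 141 NW and 189 ABX cells. The leading heavy gene held a median of 100% of a cell's heavy V gene UMIs in both libraries, and the leading light gene 96.96% in NW and 96.36% in ABX. A second light gene with at least 3 UMIs and 25% of the light V gene UMIs was found in 8 NW and 20 ABX cells, and a second heavy gene in 1 and 3.

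B cell-like cells gave few calls at this depth. A heavy V gene was called in 6 of 351 NW cells, or 1.71% (0.63 to 3.68%), and in 18 of 969 ABX cells, or 1.86% (1.10 to 2.92%). A light V gene was called in 63 NW cells, or 17.9% (14.1 to 22.4%), and in 150 ABX cells, or 15.5% (13.3 to 17.9%). Both chains were called in 0 NW and 8 ABX cells, so V gene pairs were read mainly in plasma cell-like cells.

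**Figure D2:**
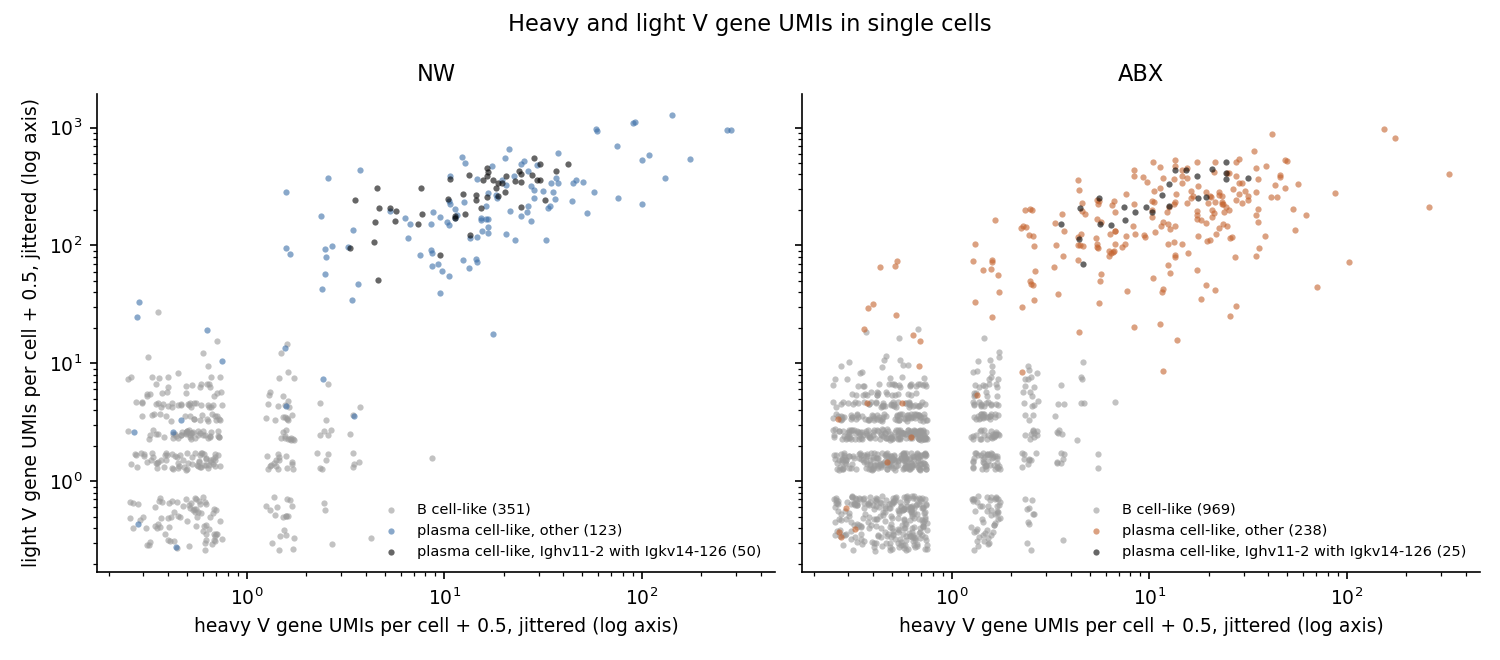
Heavy (x) against light (y) V gene UMIs per cell, 0.5 added and jittered, on log axes, with 1 point per cell, in NW (left) and ABX (right). Grey points are B cell-like cells, coloured points plasma cell-like cells, and black points plasma cell-like cells called for Ighv11-2 with Igkv14-126 (50 in NW and 25 in ABX), which lie within the range of the other plasma cell-like cells.

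Ighv11-2, the heavy gene of the best known B-1 pair, was the most used heavy V gene of plasma cell-like cells in both libraries. It was called in 50 of 150 NW cells, or 33.3% (25.9 to 41.5%), and in 28 of 209 ABX cells, or 13.4% (9.09 to 18.8%). Igkv14-126, its light partner, was called in 53 of 157 NW cells, or 33.8% (26.4 to 41.7%), and in 36 of 235 ABX cells, or 15.3% (11.0 to 20.6%). The intervals of NW and ABX, which treat the cells of a library as the sampling unit, did not overlap for either gene. In all, this was so for 3 of the 64 heavy V genes called in a plasma cell-like cell (4.69%; Ighv11-2, Ighv1-78 and Ighv4-1) and for 2 of the 61 light ones (3.28%; Igkv14-126 and Igkv8-27). The pairing was exclusive among cells with both chains called: all 50 NW cells and all 25 ABX cells with Ighv11-2 carried Igkv14-126, and the reverse held for all 50 and all 25 cells with Igkv14-126. The pair made up 35.5% of the NW cells with both chains called (27.6 to 44.0%) and 13.2% of the ABX cells (8.75 to 18.9%). No other pair was called in more than 5 NW cells or more than 10 ABX cells.

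Within the cells of this pair, the light chain used more than 1 J segment. Of the 50 NW cells, 26 had Igkj2, 23 Igkj4 and 1 Igkj1 as the leading kappa J gene (at least 2 UMIs and 75% of the cell's Igkj UMIs). The 25 ABX cells divided in a like way, with 13, 11 and 1. The heavy J gene could be read in fewer cells, and it was Ighj1 in all 12 NW and all 5 ABX cells where it was read. Among the other cells with both chains called, Ighj1 led in 7 of 31 NW cells and 12 of 56 ABX cells. Each Igkj gene marks a different light-chain joining.

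All 50 NW and all 25 ABX cells of the pair had Ighm, the IgM constant gene, as the leading heavy constant gene, against 85 of 91 and 158 of 164 of the other cells with both chains called. The switched constant genes Igha, Ighg1, Ighg2b, Ighg2c, Ighg3 and Ighe together stood at 55.7 CPM in the pair cells against 13540 in the other cells of NW, and at 62.5 against 7304 in ABX. These are summed UMIs, and the shares of cells with any switched UMI lay much closer. In NW they were 28 of 50 pair cells and 61 of 91 other cells. In ABX they were 12 of 25 and 71 of 164. The B-1 type marker list (Bhlhe41, Zbtb32, Cd5, Plscr1, Itgam, Spn and Cd9) did not differ between pair cells and other cells beyond its counting intervals. Its summed level was 181 CPM in the pair cells and 174 in the others in NW, with a log2 ratio of 0.06 (-0.27 to 0.38), and 141 and 144 in ABX, with -0.04 (-0.52 to 0.42). Bhlhe41, a transcription factor of B-1 cells, was at 28.6 CPM in the pair cells and 27.7 in the others in NW, and at 49.97 and 32.78 in ABX. The plasma cell list without Jchain was lower in the pair cells, with log2 ratios of -0.16 (-0.23 to -0.09) in NW and -0.53 (-0.62 to -0.44) in ABX. Within it, Mzb1, a chaperone of antibody secretion, had log2 ratios of -0.25 in NW and -0.74 in ABX. Xbp1, the transcription factor of the secretory program, had -0.22 and -0.54. Not every member was lower: Sdc1 stood at 0.38 (0.06 to 0.69) in NW and -0.07 (-0.53 to 0.35) in ABX. Jchain, left out of the list, had log2 ratios of 0.27 in NW and 0.03 in ABX.

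The other 2 B-1 pairs that were looked for were rare or not called. Ighv12-3 with Igkv4-91 was called in 2 of 141 NW cells, or 1.42% (0.17 to 5.03%), and in 4 of 189 ABX cells, or 2.12% (0.58 to 5.33%). All of the cells called for Ighv12-3 and a light gene carried Igkv4-91. Ighv7-1 with Igkv7-33 was called in no cell of either library, which allows a share of up to 2.58% in NW and 1.93% in ABX. Ighv7-1 itself was called in 1 NW and 11 ABX cells, and Igkv15-103 was its partner in the 1 NW cell and in 9 ABX cells. Igkv7-33 had 1 UMI in NW and 2 in ABX over all cells.

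Beyond the leading pair, most pairs were called in 1 cell. NW had 71 distinct pairs, of which 56 were in 1 cell, and ABX had 88, of which 63 were in 1 cell. Recurrent pairs, in 4 or more cells, numbered 4 in NW with 63 cells and 13 in ABX with 98 cells. After the leading pair they were Ighv14-2 with Igkv8-30 (5 cells), Ighv6-3 with Iglv1 and Ighv6-6 with Igkv14-111 (4 cells each) in NW. In ABX the most frequent were Ighv1-26 with Igkv8-27 (10 cells), Ighv7-1 with Igkv15-103 (9 cells), Ighv1-55 with Igkv12-89 and Ighv10-1 with Igkv2-112 (8 cells each), and Ighv1-78 with Igkv5-48 and Ighv1-80 with Igkv4-55 (6 cells each). Both libraries shared 10 pairs, and those 10 covered 64 NW and 61 ABX cells, of which the leading pair gave 50 and 25. How many shared pairs this sampling would give, with most pairs in 1 cell, was not tested. The chance that 2 cells drawn at random from a library have the same pair was 12.7% in NW and 2.99% in ABX, and without the leading pair it was 0.806% among 91 NW cells and 1.73% among 164 ABX cells.

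The kappa J gene divided the recurrent pairs of ABX further. Of 8 such pairs besides the leading one that had Igkj read in at least 3 cells, 5 had the same Igkj in every cell read. Igkv2-112 cells paired with Ighv10-1 had Igkj5 in 6 of 6 cells and Ighj2 in 6 of 6. Ighv1-26 with Igkv8-27 had Igkj4 in 6 of 6 and Ighj4 in 3 of 3, and Ighv1-78 with Igkv5-48 had Igkj4 in 6 of 6. By contrast, Ighv7-1 with Igkv15-103 had Igkj1 in 6 of 8 cells and 2 other segments in the remaining cells, and Ighv1-55 with Igkv12-89 had Igkj1 in 5 of 8 and Igkj2 in 3. Shared V and J genes do not show that cells are a clone, and the joining sequences were not analysed here. In NW, Ighv14-2 with Igkv8-30 had Igkj1 in 4 of 4 cells read, but of 3 cells with the heavy J gene read 2 had Ighj2 and 1 had Ighj3. The heavy J gene also differed among the 3 ABX cells read of Ighv1-55 with Igkv12-89, with Ighj4 in 2 and Ighj1 in 1. Of the 4 NW cells with Ighv6-3 and Iglv1, 3 were led by Ighg3, an IgG constant gene, and 1 by Ighm. The 1 ABX cell of this pair was led by Ighm.

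**Figure D3:**
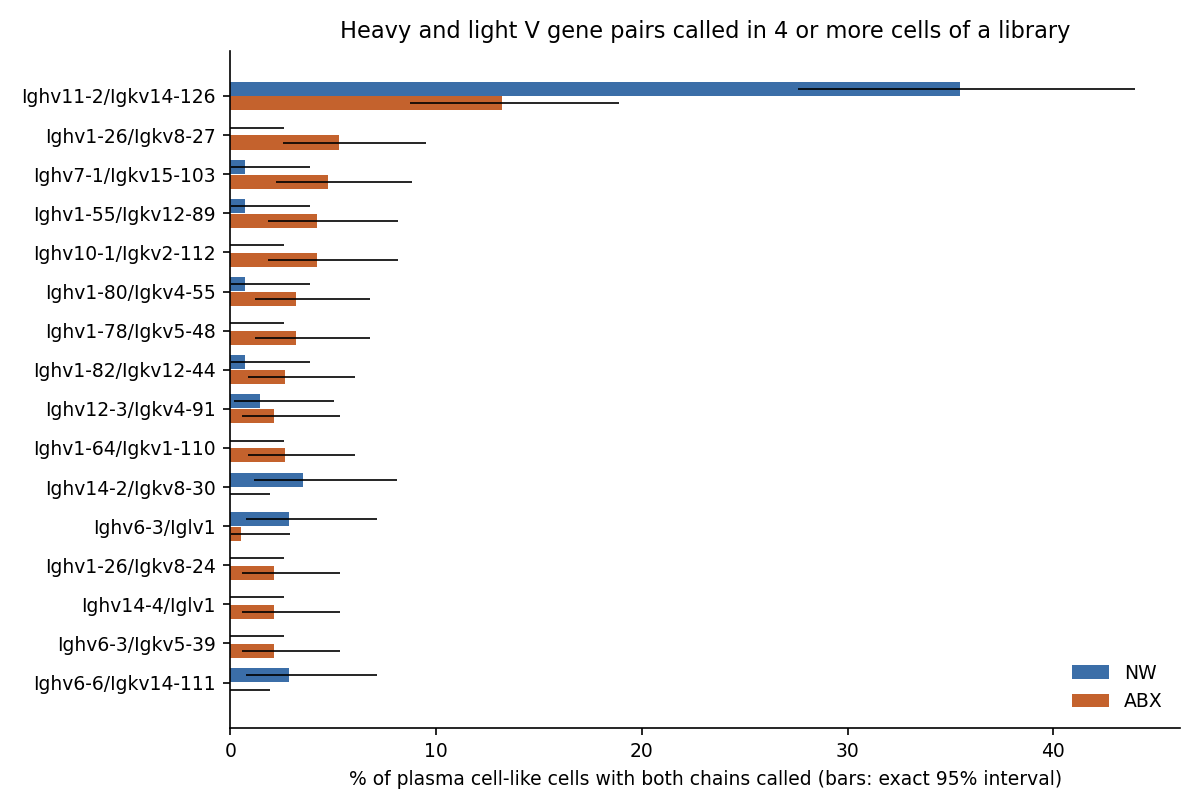
Percent of plasma cell-like cells with both chains called (x) that carried each heavy and light V gene pair (y), for pairs in 4 or more cells of a library, as bars with exact 95% intervals as lines, in NW (blue, 141 cells) and ABX (orange, 189 cells). The pair Ighv11-2 with Igkv14-126 stands at 35.5% in NW and 13.2% in ABX, and all other pairs lie at 5.29% or below.

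By family, the Ighv1 genes, the largest family with 66 members here, led in 41 of 150 NW plasma cell-like cells, or 27.3% (20.4 to 35.2%), and in 89 of 209 ABX cells, or 42.6% (35.8 to 49.6%). These totals include the cells called for Ighv11-2. Of the 100 NW and 181 ABX cells not called for that gene, the Ighv1 genes led in the same 41 and 89. By UMIs in place of cells, the Ighv1 share was 29.3% in NW and 30.9% in ABX. The Ighv11 family, with 2 members, consisted of Ighv11-2 in every called cell. Ighv4-1 was called in 0 NW and 11 ABX cells, or 5.26% (2.66 to 9.22%) of the ABX cells, and Ighv1-78 in 0 and 14. The 0 of 150 NW cells allow up to 2.43% for each of them. Ighv6 genes led in 8.67% of NW cells (4.70 to 14.4%) and 4.78% of ABX cells (2.32 to 8.62%), which overlap. Among light genes, the Igkv14 family held 36.3% of the called NW cells and 16.2% of the ABX cells, the Igkv4 family, with 33 members the largest, 14.0% and 13.6%, and the Igkv12 family 7.64% (4.01 to 13.0%) and 12.3% (8.42 to 17.2%). Igkv8-27 was called in 0 NW cells, which allows up to 2.32%, and in 14 ABX cells, or 5.96% (3.29 to 9.79%).

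Lambda genes led in 8 of 157 NW plasma cell-like cells, or 5.10% (2.23 to 9.79%), and in 14 of 235 ABX cells, or 5.96% (3.29 to 9.79%). Their share of light V gene UMIs was higher, at 15.5% and 12.8%. A plasma cell-like cell called for Iglv1 held a median of 699 Iglv1 UMIs in NW (6 cells) and 384 in ABX (11 cells), against 265 and 188.5 Igkv14-126 UMIs in cells called for that gene. In B cell-like cells, lambda genes led in 13 of 63 NW cells, or 20.6% (11.5 to 32.7%), and in 31 of 150 ABX cells, or 20.7% (14.5 to 28.0%). This was above the lambda share of plasma cell-like cells in each library. The light calls of B cell-like cells rest on few UMIs, and the part of the UMI yield of lambda genes in this was not tested.

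How many UMIs a V gene yielded per cell differed by gene. Over the 25 light V genes called in 5 or more plasma cell-like cells of both libraries together, the median UMIs of the called gene per cell ran from 61 for Igkv4-59 to 466 for Igkv5-39, with 432 for Iglv1, 240 for Igkv14-126 and 94 for Igkv12-89. Over 22 heavy genes it ran from 5 for Ighv1-55 to 99 for Ighv3-6, with 13 for Ighv11-2. Ighv1-55 thus stood at 3 to 9 UMIs in the cells called for it, close to the limit of 3, and Ighv3-6 at 14 to 260.

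In the heavy-chain locus, Ighv11-2 lies 618 kb from the Ighj segments, which every heavy V gene joins through a D segment. The 44 of 132 heavy V genes nearest to Ighj (143 to 858 kb) led in 56.7% of NW cells (48.3 to 64.7%) and 42.6% of ABX cells (35.8 to 49.6%). Without the cells called for Ighv11-2, the 44 nearest led in 35.0% of 100 NW cells and 33.7% of 181 ABX cells, the middle 44 in 35.0% and 31.5%, and the 44 farthest (1534 to 2580 kb) in 30 of 100 cells and 34.8%. Apart from that gene, use did not lean to either end of the locus beyond the intervals, the widest of which spans 25.7 to 45.2%.

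**Figure D4:**
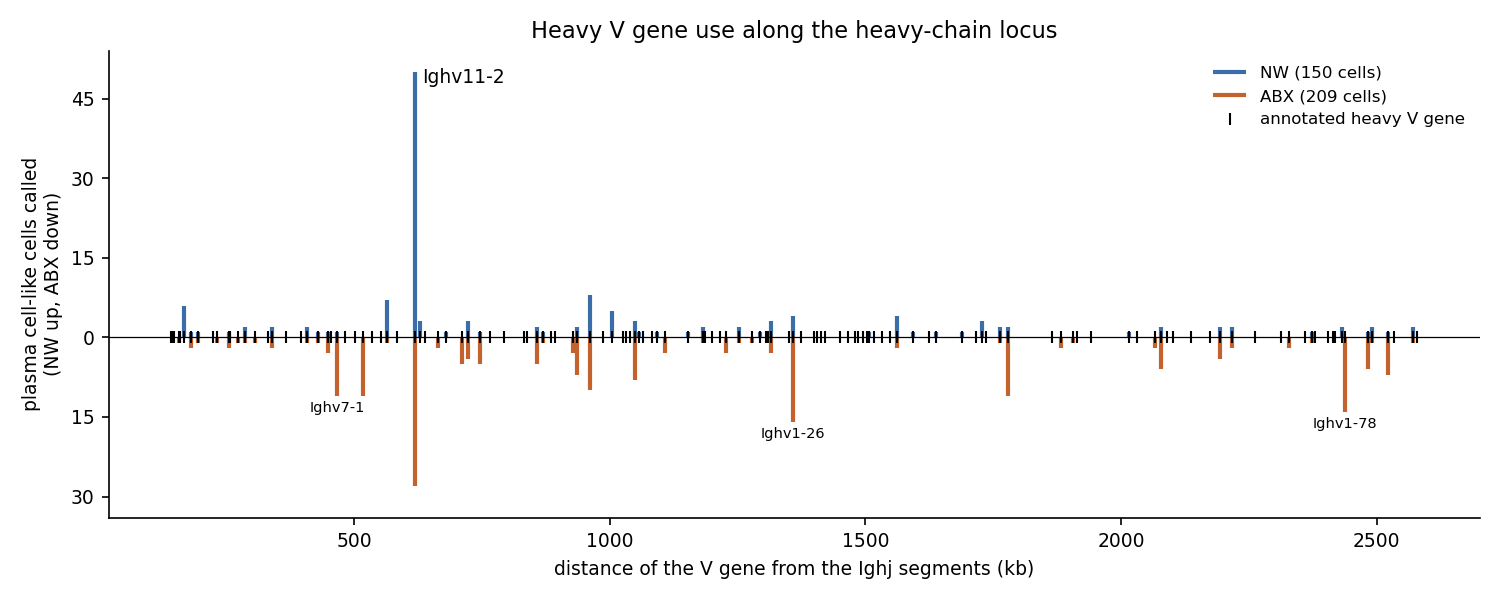
Plasma cell-like cells called for each heavy V gene (y; NW upward in blue, 150 cells, and ABX downward in orange, 209 cells) against the distance of the gene from the Ighj segments in kb (x); black ticks mark the 132 heavy V genes. Ighv11-2 stands out with 50 NW and 28 ABX cells, and Ighv1-26 with 16 and Ighv1-78 with 14 are the next highest in ABX.

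In B cell-like cells, the most often called light V genes were Igkv14-126 in 9 of 63 NW and 15 of 150 ABX cells, with intervals of 6.75 to 25.4% and 5.71 to 16.0%, and Iglv1 in 7 and 18 cells, with intervals of 4.59 to 21.6% and 7.27 to 18.3%. Igkv4-91 was called in 4 and 10 cells, Igkv12-89 in 4 and 9, Igkv10-96 in 2 and 12, Iglv2 in 4 and 6, Iglv3 in 2 and 7, and Igkv9-120 in 4 and 2. The intervals of NW and ABX overlapped for each of these 8 genes. Ighv3-6 was the most often called heavy V gene, in 1 of 6 NW and 6 of 18 ABX cells. Of the next heavy genes, Ighv10-3, Ighv1-18, Ighv1-39, Ighv1-82, Ighv6-3, Ighv7-3 and Ighv1-15, none was called in more than 2 cells of a library. Ighv11-2 was called in no B cell-like cell, although it had 1 UMI in NW and 14 in ABX there, beside 65 and 137 UMIs of Igkv14-126.

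Single V genes were then compared between the libraries by their summed UMIs, with at least 50 UMIs over both. In plasma cell-like cells, 100 V genes passed this minimum and 77 of them differed at least 2-fold, where 2.69% of all 7480 genes did. All genes include the V genes themselves, so the 77 are among the 201 genes behind that share. Of the 77 V genes, 42 were higher in ABX, where 1.54% of all genes were, and 35 were lower, where 1.15% were. The median log2 ratio was -0.12 over the V genes and 0.03 over all genes, and single V genes ran from -8.18 to 10.16. A V gene's UMIs came from few cells: the highest cell held a median of 41.4% of a gene's plasma cell-like UMIs, and for 39 of the 100 genes it held 50% or more. Igkv2-112 had 1 UMI in NW and 1481 in ABX, from 9 called ABX cells. Igkv8-27 had 6 and 2100 UMIs, from 14 ABX cells, and Ighv4-1 had 1 and 606. In the other direction, Igkv6-14 had 223 and 1, Igkv4-61 had 633 and 6, and Igkv3-12 had 551 in NW and 0 in ABX. Igkv3-12 shows how much 1 cell can weigh, since 98.0% of its UMIs over all NW cells were in 1 cell. A single cell also held 98.2% of the Igkv3-10 UMIs in ABX, and in NW 95.2% of those of Igkv3-4, 78.2% of those of Igkv15-103 and 63.4% of those of Igkv3-5. Igkv14-126, spread over many cells, had no cell with more than 3.74% of its 14438 UMIs in NW or 5.59% of its 8840 in ABX.

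In B cell-like cells, 15 V genes passed the minimum and 1 of them, or 6.67%, differed at least 2-fold. Of all 8661 genes, V genes included, 1.4% did. The V gene count depends on the minimum, with 10 of 38 V genes at 20 UMIs or more and 0 of 7 at 100 or more. In plasma cell-like cells it was 95 of 124 and 61 of 81. The share over all genes was taken only at 50 UMIs, so the counts at 20 and 100 UMIs have no background to be read against. The gene past the limit at 50 UMIs was higher in ABX, where 0.6% of all genes were, and no V gene was lower, where 0.797% of all genes were. The gene was Igkv5-39, whose 6 NW and 54 ABX UMIs gave a log2 ratio of 1.75 (0.54 to 3.26). The next was Iglv2, with 49 and 66 UMIs and -0.99 (-1.54 to -0.42), just inside the limit. The median log2 ratio of the 15 genes was -0.05, and of all genes -0.03.

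V gene UMIs outside the B lineage were few and spread thinly. In classes other than the B cell-like, plasma cell-like and proliferating ones, leaving out the 14 NW and 5 ABX cells with 5 or more V gene UMIs, 5.87% of 11595 NW cells (5.45 to 6.32%) and 5.52% of 11222 ABX cells (5.11 to 5.96%) had a V gene UMI. Of the cells with any, 91.0% and 92.4% had just 1. The level was 11.3 CPM in NW and 13.6 in ABX, which is 1.60% and 1.33% of the level over all cells of the library. Of the macrophage-like cells, which do not rearrange V genes, 5.90% in NW (5.31 to 6.54%) and 5.42% in ABX (4.82 to 6.08%) held a V gene UMI, at median depths of 5625 and 3981 UMIs. Thinned to 1000 UMIs per cell, the expected shares were 1.27% and 1.53%, with 80 and 142 shallower cells left out. In B cell-like cells, at median depths of 4068 and 4081, the unthinned shares were 78.1% and 74.3%, and the thinned ones 38.2% and 34.9%. The source of the V gene UMIs outside the B lineage was not tested, and a single one in such a cell is not read as expression by that cell.

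The V genes of these UMIs were closer to those of the plasma cell-like cells of the same library than of the other library. Over the 274 V genes, the UMIs in the other cells of NW (764) correlated with those of the NW plasma cell-like cells at Pearson's r = 0.945 and with those of the ABX plasma cell-like cells at r = 0.848. In ABX (683 UMIs), r was 0.940 with the own library and 0.800 with the NW library. With the leading genes Igkv14-126 and Iglv1 left out, r was 0.844 with the own and 0.514 with the other library in NW, and 0.895 and 0.521 in ABX. Against B cell-like cells r was 0.763 in NW and 0.795 in ABX within a library. These are descriptions across genes, which share their library and depth and are not replicates.

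Genes found mainly in the plasma cell-like cells of 1 library were read separately. Of the V genes with at least 500 plasma cell-like UMIs in 1 library and at least 10-fold fewer in the other, 6 were high in ABX and 3 in NW. The 6 genes had 7056 UMIs in ABX plasma cell-like cells and 69 in the other ABX cells, against 32 and 3 in NW. For example, Igkv8-27 had 21 UMIs in the other cells of ABX and 2 in those of NW, and Ighv4-1 had 18 and 0. The 3 genes (Igkv3-12, Igkv3-5 and Igkv4-61) had 1740 UMIs in NW plasma cell-like cells and 20 in the other NW cells, against 16 and 0 in ABX. All 9 genes lay on the same side in the other cells as in the plasma cell-like cells. The counts were small, down to 0 in NW and 2 in ABX for Igkv4-79, and no share over the remaining V genes was taken. In B cell-like cells, which were more numerous in ABX, all 9 genes had more UMIs in ABX. This included the 3 genes high in NW plasma cell-like cells: Igkv3-12 had 0 in NW and 9 in ABX, Igkv3-5 had 2 and 8, and Igkv4-61 had 0 and 5.

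**Figure D5:**
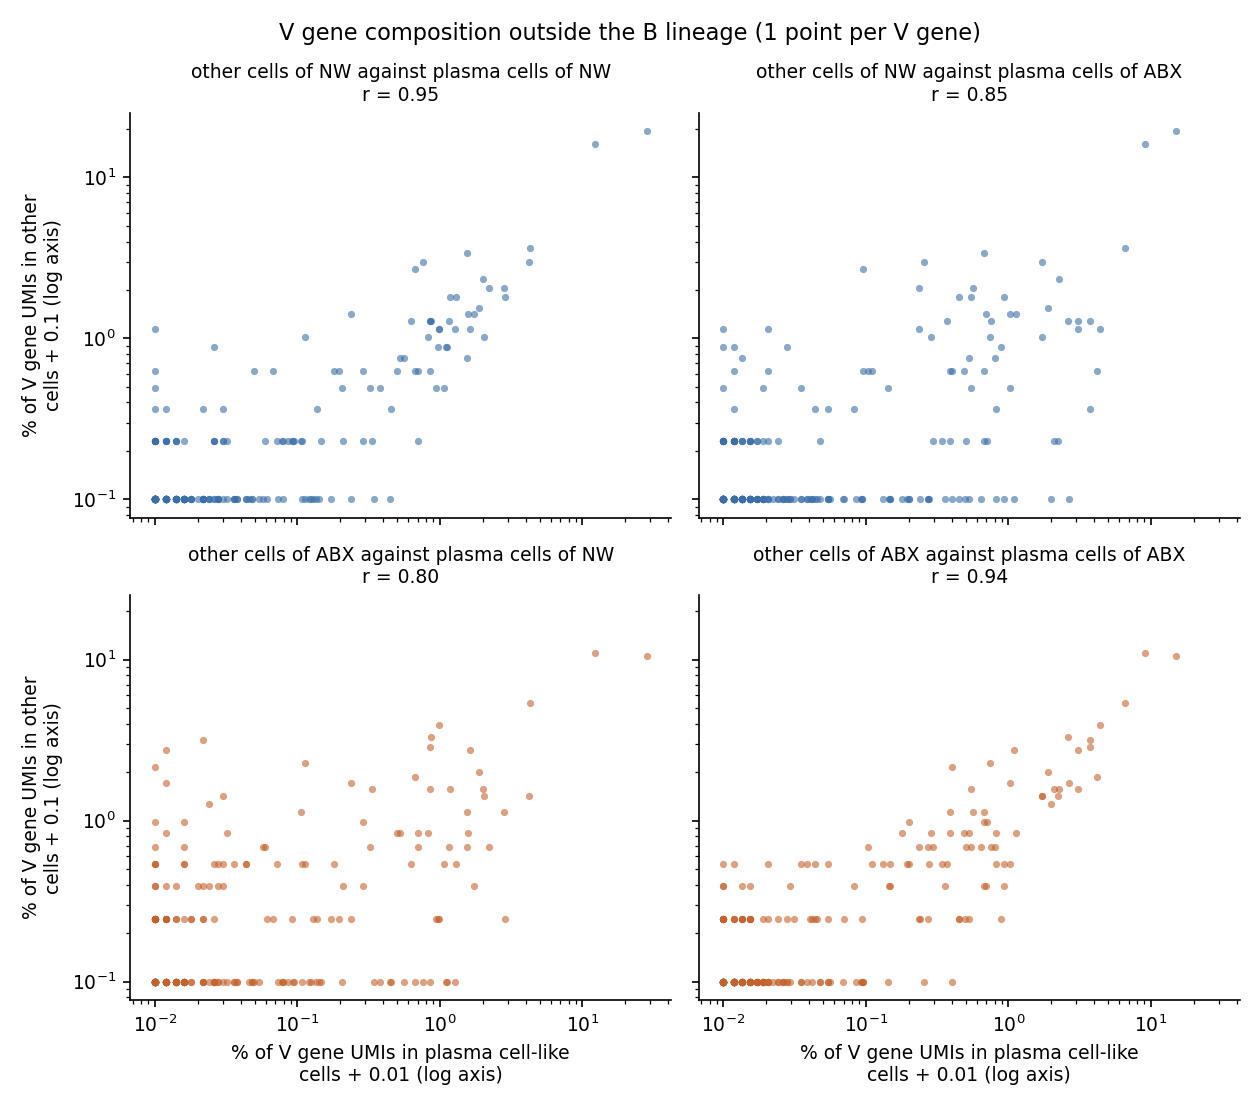
Percent of V gene UMIs of each V gene (1 point per gene) in plasma cell-like cells (x, 0.01 added, log axis) and in cells outside the B lineage with fewer than 5 V gene UMIs (y, 0.1 added, log axis), for each combination of NW and ABX. The points lie closer to a line within a library (r = 0.945 in NW and 0.940 in ABX) than between libraries (r = 0.848 and 0.800).

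Iglv1 was also found across the plasma cell-like class, in cells called for another light gene. Iglv1 had a UMI in 80 of 149 NW cells called for a kappa gene, or 53.7% (45.3 to 61.9%), and in 109 of 221 such ABX cells, or 49.3% (42.6 to 56.1%). Its level in cells called for another light gene was 240 CPM in NW and 263 in ABX, which is 132 and 178 times its level in the cells outside the B lineage (1.82 and 1.47 CPM). For Iglv2, the lambda gene nearest to it in sequence, the level was 9.94 and 59.1 CPM. That is 61.1 and 228 times its level in the other cells (0.16 and 0.26 CPM, from 11 and 13 UMIs). For a lambda gene, the cells called for another light gene include cells called for another lambda gene. In the kappa cells alone, Iglv1 stood at 213 CPM in NW and 254 in ABX. Iglv2 stood there at 2.90 and 58.1 CPM, from 6 and 154 UMIs. For Igkv14-126, which had more UMIs in plasma cell-like cells of each library than Iglv1, the level in cells called for another light gene was 35.7 and 17.4 CPM, 16.4 and 12.3 times that in the other cells. For Igkv12-89, Igkv1-110 and Igkv8-30 the ratio was at most 49.8 in NW and 74.1 in ABX. Iglv3, with 52 UMIs in NW plasma cell-like cells, had a UMI in 27 of the 149 kappa cells. The lambda constant gene Iglc2 was detected in 146 of the 149 kappa cells of NW and in 220 of the 221 of ABX. In B cell-like cells called for a kappa gene, Iglv1 was detected in 1 of 50 cells in NW and 2 of 119 in ABX, Iglv3 in 2 and 10, and Iglc2 in 45 and 112.

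Cells with precursor genes, which act before and during V gene joining, were few and held few V gene UMIs in number. In cells with UMIs of at least 2 of the precursor genes Vpreb1, Vpreb2, Igll1, Rag1, Rag2 and Dntt, the 38 NW cells held 10 heavy and 22 light V gene UMIs and the 12 ABX cells 1 and 2. A V gene UMI was found in 17 of the 38 and 3 of the 12 cells. Their level was 90.4 CPM in NW (61.8 to 128) and 39.1 in ABX (8.06 to 114). Macrophage-like cells stood at 15.6 and 13.4 CPM and B cell-like cells at 497 and 469. Ighv5-2, a V gene near the D segments that is joined often in early B cell development, had 1 UMI in NW and 3 in ABX over all cells and was called in no cell.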

How the data were processed

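The authors ran the BD WTA Rhapsody Analysis Pipeline 1.8 on the reads with the mouse genome GRCm38 and deposited, per library, whole-number UMI counts of each gene and of 10 antibodies for each barcode, without normalization. The submitters' processing notes name Seurat 3.0.1 in R 3.6.0. Only gene counts were used here. Cells with at least 500 UMIs, 200 genes and at most 25% mitochondrial UMIs were kept, leaving out 5188 NW and 5061 ABX barcodes. Seurat 5.3.0 in R 4.3.3 clustered both libraries together (2000 variable genes without immunoglobulin genes, 30 principal components, resolution 0.6). Clusters took the class whose markers had the highest average log2 fold, given at least 3 markers 1.5-fold higher than elsewhere and in 10% of its cells, and T, NK and ILC clusters were merged. No doublets were removed. Scrublet (scanpy 1.11.5) marked 344 NW and 324 ABX cells, with the NW threshold in both, since the ABX threshold marked 1 cell.

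Genes named are the 8 heavy and 8 light V genes called most in B cell-like cells, the 5 and 5 called most in plasma cell-like cells, those called in at least 20 B cell-like cells (Igkv14-126 and Iglv1), 3 B-1 pairs, Ighv5-2 and lambda genes, and, among V genes with at least 500 UMIs in a library, the 5 with the largest share of these in 1 cell. Others, such as the genes of recurrent pairs and of the largest ratios, were chosen after their values were seen. The V genes and lists were chosen with earlier results of these data known, and the comparison of plasma cell-like cells was added after seeing the data. Shares have exact Clopper-Pearson 95% intervals, levels and ratios exact Poisson ones. A count of 0 was set to 3 counts in ratios. The fold counts and chain calls were tested on simulated data. Lengths and identities came from edlib 1.3.9.post1. Protein sequences were not used here. The division of B cell-like cells by B-1 and B-2 type markers is not reported here.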

Additional observations from a re-analysis of the deposited data

Results flagged for a closer look

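Outside the cells used, the barcodes that failed the filters also held V gene UMIs, at a higher level in ABX than in the NW control, with intervals that overlap. The 5188 NW barcodes left out held 114 V gene UMIs, or 24.6 CPM (20.3 to 29.5), and the 5061 ABX barcodes held 119, or 29.5 CPM (24.5 to 35.3). A V gene UMI was found in 1.985% of the NW and 1.996% of the ABX barcodes left out, with at most 5 and 7 in a barcode.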

How the results depend on the processing

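With 1 library per condition no value has a replicate error, and thin heavy-chain counts limit the B cell-like calls. No paired analysis was possible because there is 1 library per condition. Of 155 values under other settings, 122 stayed within the interval of the value given (or within 1.5 times for counts), 33 moved and none reversed a ratio whose interval left out 0. The pair share of plasma cell-like cells and its order between libraries held under all settings tried. The 76 values for calls in plasma cell-like cells were added after seeing the data. The cause of a change was not tested unless the setting itself gives it.

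The V gene log2 ratio over all cells was 0.52 without doublets and 0.68 without the 10 cells with the most V gene UMIs of each library. In plasma cell-like cells it was -0.14 without those cells and -0.11 by a per-cell marker rule, and in B cell-like cells it was 0.12 by that rule, in the other direction. Plasma cell-like cells held 95.7% of V gene UMIs in NW and 92.7% in ABX by the rule, 94.99% and 90.78% without doublets, and 90.6% in ABX with immunoglobulin genes among the variable genes. B cell-like cells of ABX held 3.91% by the rule and 3.24% without doublets. With a leading gene at 2 UMIs, heavy calls rose to 5.41% of NW and 5.78% of ABX B cell-like cells and 84.8% of ABX plasma cell-like cells. At 5 UMIs they were 0.285%, 0.103% and, in plasma cell-like cells, 78.6% in NW and 69.6% in ABX, and the Ighv1 share of B cell-like cells was 0% in both, from 1 called cell each. At 90% of UMIs plasma cell-like calls were 78.6% and 69.2%, and by the rule 75.1% in NW. By UMIs in place of cells, lambda shares of plasma cell-like cells were 15.5% and 12.8%. The Ighv1 share in ABX was 30.9%, beside 29.3% in NW, which stayed within its interval. V genes at least 2-fold different in B cell-like cells numbered 10 of 38 at 20 UMIs and 0 of 7 at 100, with no share over all genes taken at these minimums. Macrophage-like shares thinned to 1000 UMIs were 1.27% and 1.53%, and to 500 UMIs 0.687% and 0.765%.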

Other observations

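In proliferating cells with 20 or more V gene UMIs, UMIs of more than 1 V gene were found. The 6 NW cells together held at least 1 UMI of 6 heavy and 9 light V genes, and the 21 ABX cells of 19 and 48. These counts include genes with a single UMI, so they do not give the number of V genes the cells used. Both chains were called in 3 and 10 of them. None of these cells was called for Ighv11-2 with Igkv14-126, the pair that made up 35.5% and 13.2% of the plasma cell-like cells with both chains called. With both chains called in so few proliferating cells, this absence cannot show a difference from those shares.

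With the limit for a call lowered to 2 UMIs, 1 of 28 ABX B cell-like cells with both chains called carried Ighv11-2 with Igkv14-126, or 3.57% (0.09 to 18.3%). In NW it was 0 of 5, which allows up to 52.2%. The depth could not show a difference from the plasma cell-like cells of ABX.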
